A study of Mus musculus with 10 samples.

Results

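Transcripts of 9 genes that mark pluripotent cells and the epiblast, Pou5f1, Nanog, Sox2, Foxd3, Zfp42, Otx2, Utf1, Lin28a and Dnmt3b, were followed across 4 populations sorted from differentiating mouse embryonic stem cells (mESCs). The genes were chosen by name, and each was found once among the 38924 gene identifiers of the count files through its GENCODE M21 symbol. RNAseq covered Foxa2+ cardiac mesoderm (CM, 3 samples), Foxa2- CM (3 samples), Foxa2+ endoderm (2 samples) and the population labelled Flk1+ high (2 samples), which the study describes as haematopoietic mesoderm. Flk1 is another name for Kdr. All came from the Foxa2-hCD4 line, in which the Foxa2 locus also makes a truncated human CD4 protein, so that living cells can be sorted by their Foxa2 expression. The line was kept in SF-ES medium with PD, Lif and CHIR and collected at day 5 of differentiation. Activin A was given at 8 ng/ml to the cultures behind both CM populations and haematopoietic mesoderm, and at 75 ng/ml to those behind the endoderm. The methods of the study also list BMP4 and vascular endothelial growth factor for the mesoderm cultures, and only Activin A for the endoderm cultures. Every endoderm sample therefore differed from the others in culture as well as in sorted cell type, and these cannot be told apart. The replicates are labelled only as separate samples, so p-values measure the spread between these samples, which may be technical.

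Pou5f1 (the gene of Oct4), Nanog and Sox2 encode the transcription factors at the centre of the network that holds mESCs pluripotent. As the epiblast leaves the naive state, Zfp42 (the gene of Rex1) is shut down, whereas Otx2 and Dnmt3b become more active. At gastrulation, Nanog and Pou5f1 stay on in the posterior epiblast around the primitive streak, and Sox2 becomes a gene of the anterior epiblast and the neural plate.

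Expression is given in CPM, the counts on a gene scaled to a library size that was corrected for composition. Gene positions are those of mm10 in GENCODE M21. Between 10926284 and 17470126 reads were counted on genes per sample, and 3 counts, taken as the smallest detectable signal, correspond to between 0.169 and 0.279 CPM, a floor that covers counting error only. Foxa2 stood at 185 and 183 CPM in endoderm, between 3.49 and 20.0 CPM in Foxa2+ CM, between 0.872 and 2.54 CPM in Foxa2- CM and at 0.690 and 0.787 CPM in haematopoietic mesoderm. Kdr was at 6.24 and 9.94 CPM in endoderm and between 353 and 592 CPM elsewhere, and Pdgfra was at 34.3 and 23.8 CPM in haematopoietic mesoderm against 201 to 306 CPM in CM. Some libraries stood apart within their group, and the genes that show this were chosen after their values were seen. The haematopoietic mesoderm replicates differed in Klf4 (67.4 and 6.84 CPM) and Klf2 (61.7 and 5.27 CPM). The third replicate of each CM group had the highest summed level of 8 haemato-endothelial markers (938 and 920 CPM, against 686 to 777 CPM in the other 4 CM samples), and Foxa2 was lowest in the third Foxa2+ CM replicate. Where leaving out 1 of these libraries changed a call described here, the value without it is given.

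The 9 genes did not behave as a block. In Foxa2+ endoderm compared with Foxa2+ CM, 7 of the 9 were higher and 1, Zfp42, was lower by the quasi-likelihood test of edgeR after Benjamini-Hochberg adjustment (adjusted p under 0.05 and at least 2-fold), while 10.2% of the 16180 genes tested were higher and 8.49% lower. Compared with Foxa2- CM, again 7 were higher and 1 lower, against 9.18% and 7.81% of all genes. Compared with haematopoietic mesoderm, 7 were higher and none lower, against 11% and 8.11% of all genes. Foxd3 is among the 7 each time. It had at most 1 count in each sample outside endoderm and passed the expression filter only through endoderm. Its direction was therefore fixed in advance and is not support for the counts. The median log2 difference of the 9 genes was 2.68, 2.34 and 5.32 in these comparisons, and that of all genes was at most 0.01 in size. The comparisons share the endoderm samples, so their counts are not separate evidence.

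Haematopoietic mesoderm was at the low end for most of these genes. In it, 5 of the 9 were lower than in Foxa2+ CM and none higher, against 6.25% and 5.17% of all genes. The same counts, 5 lower and none higher, came from the comparison with Foxa2- CM, against 6.4% and 5.24% of all genes. When the CM groups were compared, 1 of the 8 genes tested, Nanog, was lower in Foxa2+ CM and none was higher, against 1.52% and 1.49% of the 15284 genes tested. Foxd3 was left out of that last comparison because it had 1 count over the 6 CM samples. In sorted bulk samples, fewer cells of a type and less RNA per cell cannot be told apart, and this holds for every difference given here.

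**Figure D1:**
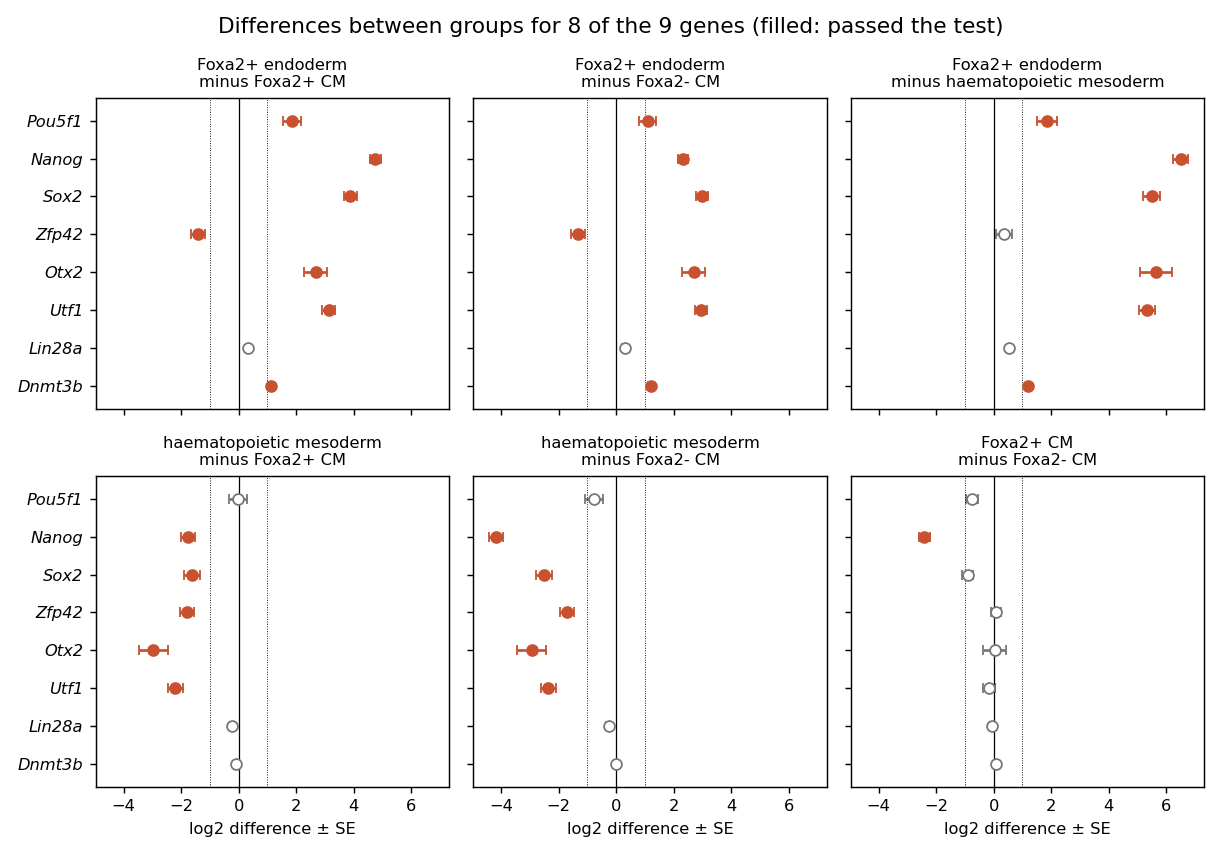
Log2 difference between groups (horizontal axis, with its standard error as a bar) for 8 of the 9 genes in the 6 comparisons; filled points passed the test and dotted lines mark 2-fold. Foxd3 is left out because it had at most 1 count per sample outside endoderm; 6 of the 8 genes shown passed the test to the right in the comparison of endoderm with Foxa2+ CM, and none lay past the 2-fold line to the right in the 3 lower panels.

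Nanog (chr6:122707489-122714633, plus strand), a homeobox factor that stabilizes self-renewal of mESCs, separated all 4 groups. Its level was 162 and 156 CPM in the endoderm replicates, 35.8, 35.1 and 23.4 CPM in Foxa2- CM, then 4.97, 6.13 and 6.48 CPM in Foxa2+ CM, and 1.82 and 1.65 CPM in haematopoietic mesoderm. No group overlapped its neighbour in this order. Endoderm exceeded Foxa2+ CM by 4.76 ± 0.19 on the log2 scale (SE), a 27.0-fold difference (adjusted p = 8.35e-07, edgeR quasi-likelihood), and Foxa2- CM by 2.34 ± 0.17, a 5.06-fold difference (adjusted p = 2.1e-05, edgeR quasi-likelihood). It exceeded haematopoietic mesoderm 90.9-fold. The difference between the CM groups was the only one among the 9 genes that passed the test. Nanog was 5.33-fold lower in Foxa2+ CM than in Foxa2- CM (log2 difference -2.41 ± 0.19, adjusted p = 0.00132, edgeR quasi-likelihood). Leaving out each sample in turn left this difference between -2.58 and -2.32. Haematopoietic mesoderm lay 3.37-fold below Foxa2+ CM and 18.0-fold below Foxa2- CM.

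The promoter of Nanog is shown because it holds, side by side, letters that the products of Pou5f1 and Sox2 can bind. The 250 bases before the RefSeq start were searched on both strands for the octamer ATGCAAA, which POU factors such as Oct4 bind, and for the Sox motif ACAANG. In the sequence from chr6:122707239-122707488 (GRCm38.p6, plus strand, 5′ to 3′), capitals mark both motifs, and the octamer, read on the other strand, starts 75 bases before the transcript.
Nanog: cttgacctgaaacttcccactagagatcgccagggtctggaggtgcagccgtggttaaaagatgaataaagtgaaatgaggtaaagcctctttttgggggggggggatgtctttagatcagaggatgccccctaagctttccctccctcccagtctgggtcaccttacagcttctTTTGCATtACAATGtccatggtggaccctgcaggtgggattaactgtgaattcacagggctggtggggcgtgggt
The motifs stand 1 base apart. Of 32851 RefSeq promoters of this length, 4.12% held the octamer and 36.3% the Sox motif, and 9, or 0.0274%, held them within 1 base of each other. Of the 9 genes, Nanog was the only one with that arrangement. A match in these letters is a description of the sequence and not a binding site measured in these cells.

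Pou5f1 (chr17:35506018-35510772, plus strand) encodes Oct4, the POU factor without which a pluripotent inner cell mass does not form. It was at 117 and 107 CPM in endoderm, 57.8, 63.1 and 36.6 CPM in Foxa2- CM, then 34.7, 32.8 and 25.4 CPM in Foxa2+ CM, and 41.7 and 19.6 CPM in haematopoietic mesoderm. Both endoderm samples stood above all others, the CM groups did not overlap, and the 2 haematopoietic mesoderm samples lay on either side of Foxa2+ CM. The lowest Pou5f1 sample, at 19.6 CPM, was well above the 3-count floor, so Pou5f1 transcripts were present in every population. The lowest Nanog sample, at 1.65 CPM, was above that floor as well. Pou5f1 was 3.62-fold higher in endoderm than in Foxa2+ CM (log2 difference 1.86 ± 0.30, adjusted p = 0.00139, edgeR quasi-likelihood) and 3.63-fold higher than in haematopoietic mesoderm (adjusted p = 0.00292, edgeR quasi-likelihood). The log2 difference from haematopoietic mesoderm was 2.51 without its first replicate (adjusted p = 0.000571 by edgeR) and 1.42 without its second (adjusted p = 0.00769 by edgeR). The rise over Foxa2- CM was 2.13-fold (log2 difference 1.09 ± 0.30, adjusted p = 0.022, edgeR quasi-likelihood) and was lost without either endoderm sample (adjusted p = 0.109 and 0.0639) or without the third Foxa2- CM replicate (adjusted p = 0.0518). Foxa2+ CM stood below Foxa2- CM by 0.76 ± 0.20 on the log2 scale, which did not pass the test (adjusted p = 0.0736, edgeR quasi-likelihood). Without the third Foxa2- CM replicate that difference was -0.96 with an adjusted p of 0.00163 by edgeR, still under 2-fold.

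The Pou5f1 level of haematopoietic mesoderm depended on which library was read. With both libraries, its log2 difference from Foxa2- CM was -0.77 ± 0.32 (adjusted p = 0.119, edgeR quasi-likelihood). Without the first haematopoietic mesoderm replicate the value was -1.42 (adjusted p = 0.0124, edgeR quasi-likelihood), and without the second it was -0.34 (adjusted p = 0.454). The first replicate was the one with more Klf2 and Klf4, and the part of that library in the result was not tested. An antisense transcript, Gm19553, shares 317 exonic bases with Pou5f1, and the library kit does not mark strand, so its reads cannot be told apart there. Reads given to Gm19553 itself numbered between 0 and 4 per sample.

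Sox2 (chr3:34650405-34652461, plus strand), an SRY-related factor that binds DNA together with Oct4, had the same order of groups as Nanog. Its level was 90.8 and 102 CPM in endoderm, 9.46, 13.9 and 13.3 CPM in Foxa2- CM, then 5.77, 6.82 and 7.04 CPM in Foxa2+ CM, and 1.50 and 2.83 CPM in haematopoietic mesoderm. Again no group overlapped its neighbour. Endoderm was 14.7-fold above Foxa2+ CM (log2 difference 3.88 ± 0.23, adjusted p = 5.69e-06, edgeR quasi-likelihood), 7.92-fold above Foxa2- CM and 45.1-fold above haematopoietic mesoderm. The CM groups differed 1.86-fold, with Sox2 lower in Foxa2+ CM (log2 difference -0.89 ± 0.19, adjusted p = 0.034, edgeR quasi-likelihood), a difference that met the p threshold but not the 2-fold limit. Haematopoietic mesoderm was 3.07-fold below Foxa2+ CM and 5.70-fold below Foxa2- CM.

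The Sox2 promoter also held both motifs, but not side by side. The 250 bases before its RefSeq start, chr3:34649745-34649994 on the plus strand of GRCm38.p6, are printed 5′ to 3′ with the Sox motif and the octamer in capitals, the octamer 99 bases before the start. RefSeq places this start 410 bases before the one in GENCODE M21.
Sox2: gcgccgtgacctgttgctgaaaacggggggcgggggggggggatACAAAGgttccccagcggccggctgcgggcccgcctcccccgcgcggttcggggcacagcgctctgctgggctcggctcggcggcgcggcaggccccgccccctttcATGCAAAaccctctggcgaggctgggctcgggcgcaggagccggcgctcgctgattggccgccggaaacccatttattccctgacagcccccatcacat
This window was CpG-rich, with an observed over expected CpG ratio of 0.83, against 0.18 for the Nanog window and a median of 0.37 over all promoters. The Nanog and Sox2 windows share both motifs and differ in CpG content.

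**Figure D2:**
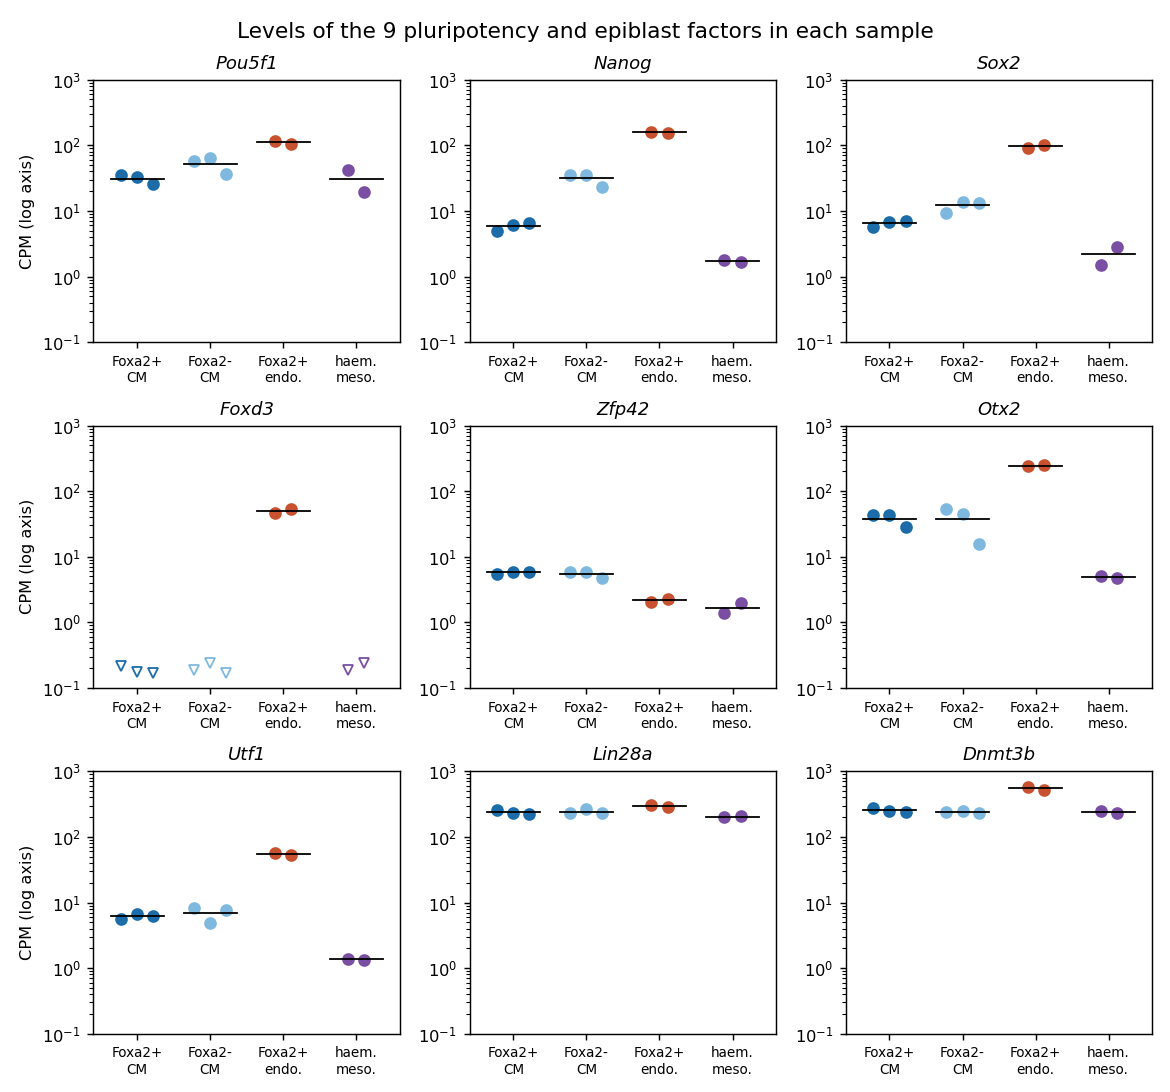
Level of each gene in each sample (CPM, log axis) in the 4 sorted groups; black lines are group means, and open triangles stand at the floor of 3 counts for samples with fewer. Both endoderm samples lie above all the others for each gene but Zfp42, which has its higher levels in CM. For Lin28a the difference from Foxa2+ CM was only 1.26-fold and under the 2-fold limit. The share of all genes with this order is not given, so the order is a description only.

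Otx2, Foxd3 and Utf1 are factors of the epiblast, and all stood highest in endoderm. Otx2 (chr14:48657677-48673819, minus strand) encodes a homeobox factor that drives the exit from the naive state and later patterns the head. Its level was 239 and 249 CPM in endoderm and 5.08 and 4.72 CPM in haematopoietic mesoderm. The Foxa2+ CM samples stood at 43.9, 42.7 and 28.2 CPM, and those of Foxa2- CM at 53.3, 44.3 and 15.5 CPM. The CM groups overlapped, endoderm stood above them and haematopoietic mesoderm below. In both CM groups the third replicate was the lowest for Otx2 and the highest for haemato-endothelial markers, and the part of those cells in the Otx2 level was not tested. Endoderm was 6.40-fold above Foxa2+ CM (log2 difference 2.68 ± 0.40, adjusted p = 0.000802, edgeR quasi-likelihood), 6.50-fold above Foxa2- CM and 49.7-fold above haematopoietic mesoderm. The log2 difference between the CM groups was 0.03 ± 0.39 (adjusted p = 0.986, edgeR quasi-likelihood) and became -0.34 without the third Foxa2- CM replicate. Otx2os1, a transcript on the other strand that shares 154 exonic bases with Otx2, had 13 and 26 counts in endoderm and at most 1 in each other sample.

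Foxd3 (chr4:99656299-99658622, plus strand), a forkhead factor needed to maintain the epiblast and later a gene of the neural crest, passed the floor only in endoderm. The endoderm samples had 497 and 641 counts, or 46.3 and 53.6 CPM. The 3 samples of Foxa2+ CM had 0 counts, 1 of the 3 samples of Foxa2- CM had 1 count, and 1 of the 2 haematopoietic mesoderm samples had 1 count. All 8 samples outside endoderm were thus under the 3-count floor, which leaves the order among those 3 groups undetermined. Set against 3 counts over the group, Foxd3 was at least 814-fold higher in endoderm than in Foxa2+ CM. Its ratio to Foxa2- CM was 2331, with an exact 95% counting interval from 417.5 to 92140, and its ratio to haematopoietic mesoderm was 1436, from 257 to 56780. No fold is given between the other groups.

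The Foxd3 promoter is shown because no other gene of the 9 was so nearly silent outside endoderm. The window chr4:99656049-99656298 on the plus strand of GRCm38.p6 is printed 5′ to 3′ without capitals, because neither motif occurs in it.
Foxd3: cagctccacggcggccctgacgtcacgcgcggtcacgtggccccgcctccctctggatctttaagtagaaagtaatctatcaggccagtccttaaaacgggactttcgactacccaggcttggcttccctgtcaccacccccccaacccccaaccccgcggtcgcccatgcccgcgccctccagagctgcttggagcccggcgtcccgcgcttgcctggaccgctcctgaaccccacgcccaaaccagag
Its CpG ratio of 0.85 was the highest of the 9 windows. The windows of Pou5f1, Otx2 and Utf1 likewise held neither motif, and those of Lin28a and Dnmt3b held 1 Sox motif and no octamer. The absence of these letters from 250 bases says nothing of distant enhancers.

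Utf1 (chr7:139943789-139945112, plus strand) encodes a chromatin-bound protein of undifferentiated cells. Its level was 57.1 and 52.1 CPM in endoderm and 1.38 and 1.34 CPM in haematopoietic mesoderm. It was 5.70, 6.71 and 6.31 CPM in the Foxa2+ CM samples, while those of Foxa2- CM had 8.23, 4.92 and 7.78 CPM. The CM groups overlapped and lay between the others. Endoderm was 8.73-fold above Foxa2+ CM (log2 difference 3.13 ± 0.21, adjusted p = 9.79e-06, edgeR quasi-likelihood) and 7.78-fold above Foxa2- CM. Haematopoietic mesoderm was 4.57-fold below Foxa2+ CM (adjusted p = 0.000634, edgeR quasi-likelihood). Between the CM groups the log2 difference of -0.16 ± 0.22 did not pass the test (adjusted p = 0.81, edgeR quasi-likelihood).

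Zfp42 (chr8:43295063-43306980, minus strand), the zinc finger gene of Rex1 and a marker of naive cells, went the other way. Its level was 5.55, 5.84 and 5.92 CPM in the Foxa2+ CM samples, while those of Foxa2- CM had 5.94, 5.79 and 4.68 CPM. The endoderm samples had 2.05 and 2.26 CPM, and those of haematopoietic mesoderm had 1.38 and 1.97 CPM. The CM groups overlapped, and every sample of either CM group exceeded every sample of endoderm and of haematopoietic mesoderm. Zfp42 was 2.67-fold lower in endoderm than in Foxa2+ CM (log2 difference -1.42 ± 0.24, adjusted p = 0.00176, edgeR quasi-likelihood) and 2.53-fold lower than in Foxa2- CM. It was 3.46-fold lower in haematopoietic mesoderm than in Foxa2+ CM (adjusted p = 0.0012, edgeR quasi-likelihood). Endoderm and haematopoietic mesoderm differed by 0.37 ± 0.28 on the log2 scale, which did not pass the test (adjusted p = 0.34, edgeR quasi-likelihood). Counts on Zfp42 ranged from 22 to 105 per sample.

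Zfp42 is the third gene of the group with an octamer in its promoter window, and the window is printed for comparison with those of Nanog and Sox2. It is chr8:43307010-43307259, read 5′ to 3′ on the minus strand of GRCm38.p6, with the octamer, read on the other strand, 185 bases before the start and the Sox motif in capitals after it.
Zfp42: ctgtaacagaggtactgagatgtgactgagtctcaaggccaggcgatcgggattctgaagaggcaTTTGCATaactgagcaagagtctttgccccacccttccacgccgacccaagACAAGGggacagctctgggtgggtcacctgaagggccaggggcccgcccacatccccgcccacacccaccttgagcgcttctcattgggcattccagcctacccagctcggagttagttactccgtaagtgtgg
Nanog, Sox2 and Zfp42, the 3 genes with an octamer in this window, did not share a direction across the groups, since the first 2 rose in endoderm over CM and Zfp42 fell.

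Lin28a and Dnmt3b were abundant everywhere and varied least. Lin28a (chr4:134003330-134018841, minus strand) encodes an RNA-binding protein that blocks the maturation of let-7 microRNAs. Its level was 307 and 290 CPM in endoderm and 201 and 207 CPM in haematopoietic mesoderm. The Foxa2+ CM samples had 259, 228 and 223 CPM, and those of Foxa2- CM 232, 269 and 232 CPM. The highest sample was 1.53 times the lowest. Endoderm stood above every other sample, but only 1.26-fold above Foxa2+ CM (log2 difference 0.34 ± 0.09, adjusted p = 0.0148, edgeR quasi-likelihood), under the 2-fold limit. The difference from haematopoietic mesoderm was 1.46-fold. No comparison of haematopoietic mesoderm with CM, nor of the CM groups with each other, passed the p threshold for Lin28a.

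Dnmt3b (chr2:153649450-153687730, plus strand) encodes a de novo DNA methyltransferase that is highly expressed in the epiblast. Its level was 581 and 519 CPM in endoderm and 246 and 232 CPM in haematopoietic mesoderm. The Foxa2+ CM samples had 275, 250 and 237 CPM, and those of Foxa2- CM 236, 247 and 234 CPM. The 8 samples outside endoderm overlapped between all 3 groups. Endoderm was 2.17-fold above Foxa2+ CM (log2 difference 1.12 ± 0.08, adjusted p = 1.21e-05, edgeR quasi-likelihood) and 2.30-fold above both Foxa2- CM and haematopoietic mesoderm. Without the first endoderm replicate the difference from Foxa2+ CM was 1.00 on the log2 scale and fell just short of 2-fold. Because duplicate reads had been removed, a base can hold at most 2 read starts, and Dnmt3b reached 1.22 counts per exonic base and Lin28a 1.03. Differences of these 2 genes may be understated for that reason, and the size of this effect was not tested.

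Levels of different genes were compared per kilobase of exon, as RPKM, the CPM of a gene divided by its exonic length in kilobases. In endoderm, 8 of the 9 genes lay between 21.5 RPKM for Foxd3 and 108 RPKM for Dnmt3b, with Nanog at 71.0, Otx2 at 57.9, Pou5f1 at 49.8, Sox2 at 46.9 and Utf1 at 44.5 RPKM, and Zfp42 stood apart at 1.14 RPKM. In haematopoietic mesoderm the genes fell into 2 sets, with Lin28a at 51.1, Dnmt3b at 46.8 and Pou5f1 at 13.6 RPKM, and all others at 1.16 RPKM or less. Foxa2+ CM had the same first 3 genes, Lin28a at 59.2, Dnmt3b at 49.7 and Pou5f1 at 13.8 RPKM, and only Foxd3 was below Nanog there, at 2.61 RPKM. In Foxa2- CM, Nanog stood at 14.0 RPKM, between Pou5f1 at 23.4 and Otx2 at 8.94 RPKM. These are levels over a mixture of cells, and expression of several of the genes in 1 cell was not measured.

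**Figure D3:**
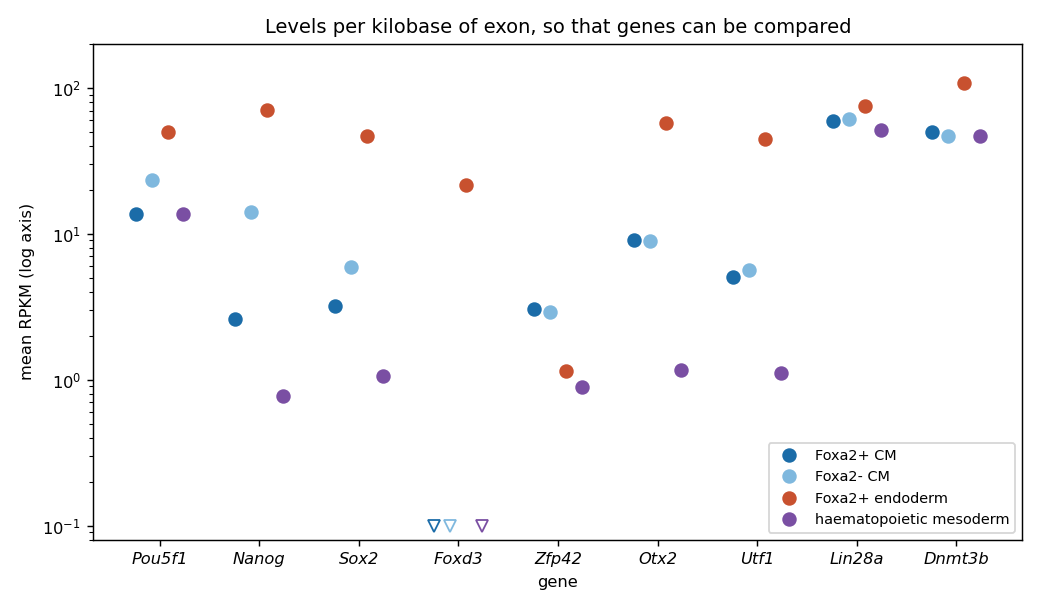
Mean level of each gene per kilobase of exon (RPKM, log axis) in the 4 groups, which are coloured as in the key; open triangles at 0.1 RPKM mark Foxd3 means below that value. In endoderm 8 genes lie between 21.5 and 108 RPKM, while in haematopoietic mesoderm only Lin28a, Dnmt3b and Pou5f1 are above 1.16 RPKM.

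The genes around these 9 were read from lists of markers. Of the formative and primed epiblast genes, 7 of 10 were higher in endoderm than in Foxa2+ CM and none lower, with a median log2 difference of 1.54 over the 10. Over all genes tested in that comparison, 10.2% were higher and 8.49% lower. Fgf5, a growth factor gene of the primed epiblast, was at 259 and 247 CPM in endoderm against 27.4 to 57.1 CPM in Foxa2+ CM (log2 difference 2.49). Zic5, a zinc finger factor, was at 102 and 73.3 CPM against 19.7 to 24.6 CPM (2.01), and Pou3f1, a POU factor of the primed epiblast, at 27.7 and 19.6 CPM against 1.07 to 2.41 CPM (3.78). The same list had 3 of 10 genes lower and none higher in haematopoietic mesoderm than in Foxa2+ CM, against 6.25% and 5.17% of all genes.

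Of the 14 genes of the naive pluripotency list, 11 passed the expression filter in the comparison of endoderm with Foxa2+ CM, 2 were higher, 2 lower and 7 passed in neither direction, with a median of -0.61. Over all genes tested, 10.2% were higher and 8.49% lower. Tbx3, a T-box factor that is also a gene of early mesoderm, was at 10.2 and 32.9 CPM in endoderm against 377 to 435 CPM in Foxa2+ CM. Prdm14 was at 0.0931 and 0.167 CPM in endoderm (1 and 2 counts) against 1.39 to 2.95 CPM in Foxa2+ CM. Fgf4 was higher in endoderm, at 11.6 and 5.52 CPM against 0.507 to 0.730 CPM, and so was Tdh, at 8.28 and 2.59 CPM against 0.563 to 1.10 CPM. Dppa3 and Tcl1, chosen for mention after their values were seen, had at most 2 counts in any of the 10 samples, and Tcl1 had 0. In haematopoietic mesoderm compared with Foxa2+ CM, 4 of the 11 naive genes were higher (Klf2, Klf5, Fgf4 and Gbx2) and 1 lower (Prdm14), against 5.17% and 6.25% of all genes, and these genes were singled out after their values were seen. The haematopoietic mesoderm replicates differed in Klf2 as given above and in Gbx2 (21.9 and 2.44 CPM), Klf5 (32.5 and 15.5 CPM) and Fgf4 (7.02 and 1.50 CPM). Without the first of them none of the 11 was called in either direction by edgeR, with 2 at an unadjusted p under 0.05, and without the second 6 were higher and none lower. Leaving out a Foxa2+ CM sample left at most 1 higher and at most 1 lower.

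Among 12 genes shared by pluripotent states, 5 were higher and 2 lower in endoderm than in Foxa2+ CM, against 10.2% and 8.49% of all genes. Epcam, an adhesion gene of epithelial cells, was at 147 and 127 CPM against 23.8 to 33.6 CPM. Gdf3, a TGF-beta family ligand, had at most 3 counts in each CM sample and stood at 1.49 and 4.35 CPM in endoderm. It passed the expression filter only through its endoderm counts, so its direction was fixed in advance. Dppa2 and Dppa4, a pair of related chromatin genes, were lower in endoderm, Dppa4 at 0.0931 and 0.501 CPM against 2.42 to 2.78 CPM and Dppa2 at 0.0931 and 0.752 CPM against 4.57 to 5.40 CPM. Without the second endoderm sample 3 of the 12 were called higher and 2 lower, Fbxo15 and Gdf3 no longer passing.

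Genes related to Lin28a and Dnmt3b were read next. None of the 9 genes of the Lin28 and let-7 list, among them the paralogue Lin28b at 173 to 290 CPM over all samples, passed the test in any of the 6 comparisons. Over all genes tested, between 1.49% and 11% passed in a given direction in these comparisons. An absence of calls among 9 genes is near those shares and is no result about the list. Lin28b differed by 0.18 on the log2 scale between endoderm and Foxa2+ CM. Of 8 genes of DNA methylation and demethylation, 1 was lower in endoderm than in Foxa2+ CM and none higher, against 8.49% and 10.2% of all genes. That gene was Dnmt3l, a cofactor of the de novo enzymes, at 2.14 and 1.50 CPM against 4.16 to 8.90 CPM (log2 difference -1.82). Dnmt3a, the other de novo methyltransferase, differed by 0.29 and did not pass the test. Of the 3 Dnmt3 genes only Dnmt3b passed the test as higher in endoderm, and whether the 3 differ from each other was not tested.

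**Figure D4:**
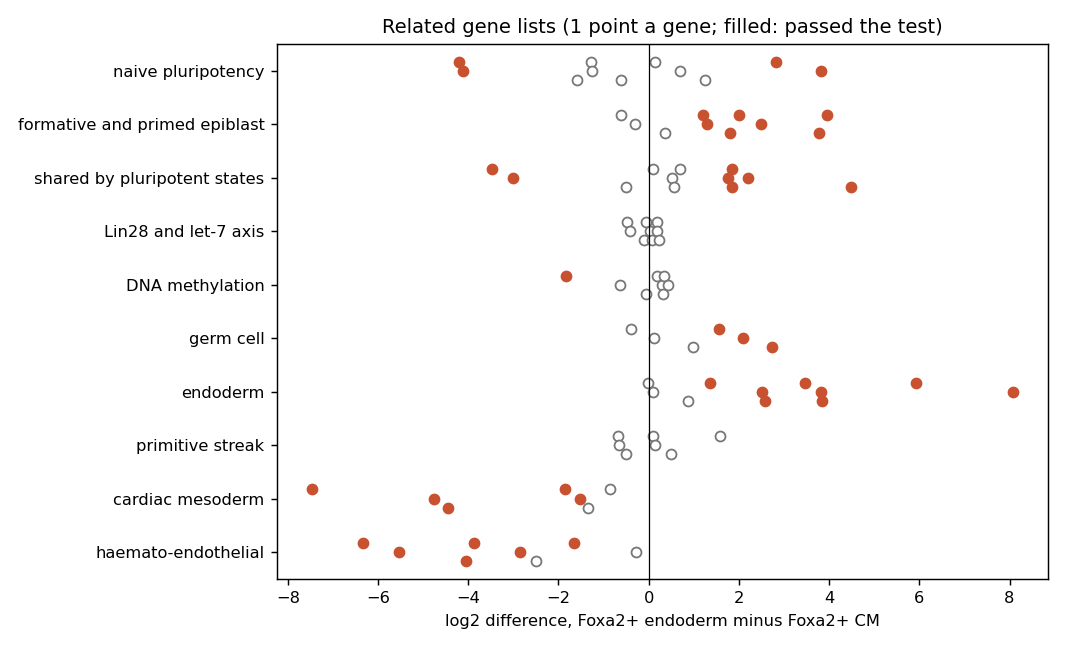
Log2 difference between Foxa2+ endoderm and Foxa2+ CM (horizontal axis) for the genes of 10 related lists, 1 point a gene; filled points passed the test. The formative and endoderm lists lie mostly to the right, with 7 of 10 and 8 of 11 genes higher, against 10.2% of all genes. The cardiac and haemato-endothelial lists lie to the left, and the Lin28 and let-7 list around 0. The sorting genes Foxa2, Pdgfra and Kdr are among the endoderm, cardiac and haemato-endothelial points. Fitted differences of genes with few counts in 1 group depend on the count added by the fit.

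Markers of other cell types that could hold these 9 genes were read in the same samples. Of 6 germ cell markers tested, 3 were higher in endoderm than in Foxa2+ CM and none lower, against 10.2% and 8.49% of all genes. These were Kit at 200 and 313 CPM against 33.2 to 42.1 CPM, Prdm1 at 96.3 and 206 CPM against 31.8 to 61.8 CPM, and Nanos3, which reached 2.26 CPM. Nanos3 passed the expression filter only through its endoderm counts, so its direction was fixed in advance. Germ cells and endoderm both use Prdm1 and Kit. Of the other markers tested, Ddx4 (1.97-fold higher), Tfap2c (1.085-fold higher) and Dnd1 (1.30-fold lower) did not pass, and Dazl was below the expression filter. The part of germ cells in the levels of the 9 genes was not tested. Of 8 neural markers 4 passed the expression filter, and 2 were higher in endoderm than in Foxa2+ CM, against the same 10.2% of all genes. Six3, an anterior neural gene, reached 5.52 CPM in endoderm with at most 3 counts in each CM sample, and Tubb3 was at 18.5 and 24.4 CPM against 2.70 to 4.60 CPM. Six3 passed the expression filter only through its endoderm counts, so its direction was fixed in advance. Sox10, a neural crest gene that was also tested, went the other way. It was 2.07-fold lower in endoderm than in Foxa2+ CM, which did not pass (adjusted p = 0.0667, edgeR quasi-likelihood). Compared with Foxa2- CM it was 3.45-fold lower and passed (adjusted p = 0.00793, edgeR quasi-likelihood). Sox1, which did not pass the test, was at or below 1.84 CPM in endoderm. Pax6, which was below the expression filter, was at or below 1.34 CPM there. The 8 neural markers summed to 24.5 and 35.2 CPM in endoderm, while haematopoietic mesoderm had 26.1 and 5.98 CPM and CM had 6.13 to 13.2 CPM. The part of such cells in the levels of Sox2, Otx2 and Foxd3 was not tested. None of the 5 extra-embryonic endoderm markers passed the test in any of the 6 comparisons in which it was tested. Over all genes tested, between 1.49% and 11% passed in a given direction, and an absence of calls among 5 genes is near those shares.

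Lineage markers were read against the sort labels. In endoderm compared with Foxa2+ CM, 10.2% of all genes were higher and 8.49% lower. The sorting genes Foxa2, Pdgfra and Kdr belong to the endoderm, cardiac and haemato-endothelial lists and are among the genes counted here. Their direction followed from the sort and is not separate evidence. Of 11 endoderm genes 8 were higher and none lower in endoderm than in Foxa2+ CM, led by Cer1 at 227 and 231 CPM against 0.365 to 1.30 CPM, Foxa1 at 50.1 and 79.1 CPM against 0.845 to 1.27 CPM, and Spink1 at 6.14 and 19.6 CPM against 0.146 to 1.30 CPM. Of 7 cardiac mesoderm genes 5 were lower, including Hand1 at 2.98 and 2.84 CPM against 54.3 to 115 CPM and Tbx20 at 4.65 and 8.94 CPM against 115 to 168 CPM, and Nkx2-5 had 1 and 2 counts in endoderm. Of 8 haemato-endothelial genes 6 were lower, including Tal1 at 0.838 and 1.00 CPM against 54.3 to 112 CPM, Fli1 at 0.186 and 2.34 CPM against 12.4 to 35.3 CPM, and Etv2 at 6.79 and 7.94 CPM against 97.5 to 126 CPM. None of 7 primitive streak genes passed in that comparison. Endoderm samples with high Nanog, Sox2, Otx2 and Foxd3 thus had endoderm markers at high levels and mesoderm markers at low levels in the same libraries. Whether these transcripts came from the same cells was not measured.

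The genes with the profile most like each of 4 members were found by the mean absolute difference of log2 CPM over the 10 samples after centring, taking genes that averaged 50 counts or more. For Nanog these were Cdh3 (0.415), Trim67 (0.568) and Frzb (0.611), and Cdh3 had mean levels of 110 CPM in endoderm, 31.0 in Foxa2- CM, 6.48 in Foxa2+ CM and 2.65 in haematopoietic mesoderm. For Sox2 they were Lbh (0.279), Syt13 (0.334) and Lefty2 (0.338), for Pou5f1 Dmtn (0.130), Upp1 (0.170) and Tmem229a (0.188), and for Dnmt3b Gstm1 (0.094), Cyb5r1 (0.095) and Aktip (0.098). Smaller values among low-range genes are partly a matter of how little those genes vary. Within the 9, the closest pair was Lin28a and Dnmt3b (0.262), followed by Pou5f1 and Dnmt3b (0.422) and Sox2 and Utf1 (0.439), and the farthest was Foxd3 and Zfp42 (3.13).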

How the data were processed

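RNAseq libraries were made by the authors with an Illumina TruSeq V2 kit, which does not mark strand, from sorted cells of 10 samples. Per the labels and the study's methods, reads were aligned to mm10 with STAR 2.5.0a, duplicates were removed with Picard and reads were counted with HTSeq 0.6.0. The values the authors deposited are raw whole-number counts per gene, with Ensembl identifiers, of which 37607 of 38924 had a GENCODE M21 symbol. The summary rows of the counter were left out of library sizes and tests.

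From the counts, TMM factors, CPM, edgeR's expression filter and its quasi-likelihood test were computed (edgeR 4.0.16, R 4.3.3), with Benjamini-Hochberg adjustment over all genes tested. A gene was called at an adjusted p under 0.05 and at least 2-fold. All 10 samples entered 1 model of 4 groups, except that Foxa2+ CM and Foxa2- CM were compared over the 6 CM samples alone. Standard errors follow from the fold change and its F statistic. Fits were tested on simulated data. Replicates differed by more than sampling noise (chi-square per degree of freedom 3.72 to 21.5), so none was merged. Exonic lengths came from GENCODE M21 and promoter sequences from RefSeq (GRCm38.p6, the genome of mm10), in which all 9 genes matched.

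The genes and marker lists were chosen with earlier results of these data known. Named from the lists were at most 4 genes each, those with the largest called difference between endoderm and Foxa2+ CM, besides Lin28b, Dnmt3a, Dnmt3l and the sorting markers. Other list genes that are named were chosen after their values were seen. The single-gene result of 1 list gene is not reported here. The alternatives were DESeq2 1.42.0, its size factors, no expression filter, other sets of samples, the replicate number as a block, no fold limit and leaving out each sample, the last of which was extended to the lists after seeing the data.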

Additional observations from a re-analysis of the deposited data

How the results depend on the processing

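The number of the 9 genes called stayed within 1.5 times its reported value under DESeq2, its size factors, no expression filter, other sets of samples and the replicate block in all 6 comparisons. Between Foxa2+ CM and Foxa2- CM, 2 genes instead of 1 passed with no fold limit, Nanog and Sox2, and leaving out a sample gave between 1 and 2, with Sox2 added without Foxa2- CM replicate 1 (log2 difference -1.07). With the replicate block, the rise of Pou5f1 in endoderm over Foxa2- CM was 0.93 on the log2 scale and fell short of 2-fold, and no other call of a single gene changed. Deviations of same-numbered CM samples correlated at 0.475, 0.084 and 0.575, against -0.542 to 0.279 for samples of different numbers. Replicates 1 and 3 correlated best with their own number and replicate 2 did not. As 1 pair was under 0.1, the numbers were not taken as pairing, and whether same-numbered samples share a culture is not given in the sources used here. That block raised the calls over all genes between the CM groups from 460 to 756, and 1 model of all 10 samples lowered them to 187. Directions that turned when a sample was left out all belonged to differences that did not pass the test, and the cause was not tested. For haematopoietic mesoderm, Pou5f1 ranged from -0.66 to 0.40 against Foxa2+ CM and Dnmt3b from -0.04 to 0.02 against Foxa2- CM. Between the CM groups, Otx2 ranged from -0.34 to 0.35, Lin28a from -0.11 to 0.03 and Zfp42 from -0.01 to 0.13. Groups of 2 or 3 samples and, for Foxd3 outside endoderm, a floor of 3 counts limit what can be shown.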

Other observations

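The 2 haematopoietic mesoderm replicates differed in several genes of pluripotent cells and not in others. These genes were chosen after their values were seen, and with 1 library on each side no test is possible. The first replicate had more Gbx2 (21.9 and 2.44 CPM), Tfcp2l1 (17.7 and 3.46 CPM), Klf5 (32.5 and 15.5 CPM), Pou3f1 (9.59 and 0.865 CPM), Tdgf1 (21.1 and 7.08 CPM) and T (209 and 80.2 CPM), besides Pou5f1, Klf2 and Klf4. In the same replicates Nanog (1.82 and 1.65 CPM), Otx2 (5.08 and 4.72 CPM) and Utf1 (1.38 and 1.34 CPM) were close, and Sox2 (1.50 and 2.83 CPM), Nodal (1.07 and 23.7 CPM) and Eomes (80.9 and 205 CPM) were lower in the first.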
